A study of Homo sapiens with 18 samples.

Results

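Interferon-stimulated genes are the genes that cells switch on after interferon binds its receptor, and 43 of them were followed here by name among the 26249 genes of an RNA-seq table. The cells were PATU-8988T and PATU-8902, 2 established lines of human pancreatic ductal adenocarcinoma, so every statement on a line rests on 1 culture line. Each line gave 3 libraries after 24 h in the vehicle DMSO, 3 after 6 h in DCLK1-IN-1 at 2.5 µM, and 3 after 24 h in the same dose. DCLK1-IN-1 is a compound that blocks the kinase activity of DCLK1. All 6 groups grew in the same serum-containing medium, and the labels name no added interferon or virus in any of them. DMSO was collected at 24 h only, so in the 6 h comparisons the inhibitor and the time in culture cannot be told apart. Levels are FPKM, fragments per kilobase of transcript scaled between libraries, which allows levels of different genes to be compared per length. The table gives no counts, so the depth behind each value is unknown. No value in it was 0, and in every library a large set of rows shared 1 low value, its floor, which lay from 0.0795 to 0.118 FPKM. Below, a gene "near the floor" is one that never exceeded 2 times the floor of its library.

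Interferons of type I and type III bind receptors whose kinases, JAK1 and TYK2, phosphorylate transcription factors that include STAT2. STAT2 and IRF9 are parts of a complex that binds interferon-stimulated response elements, short repeats of GAAA found in front of many of these genes. Interferon gamma works through JAK1 and JAK2, and induces the factor IRF1. The products block viruses at entry, in RNA sensing, in translation and in budding, and some tumour lines are known to express them steadily without added interferon.

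To show what such response elements look like in the genes described below, stretches of RefSeq promoter (build GRCh38.p14, 160 bases ending just before the annotated start) are printed 5′ to 3′ on the strand of the gene. IFIT1, IFIT3 and SAMD9 are 3 of the genes that differed most between the lines on the log2(FPKM + 1) scale, IFITM1 and IFITM3 are neighbours of which the first was far higher in PATU-8902 and the second overlapped between the lines, HERC5 is a member that was lower in PATU-8902, and OAS1 is a gene of the same class as the first 3 in which the searched letters were not found. Capitals mark GAAA of a match to GAAANNGAAA, or TTTC where the match lies on the other strand. Repeats of GAAA at any other spacing were not searched for, and the OAS1 stretch holds such a pair, gaaacgaaa, near its end. Only matches that lie whole within the printed stretch are marked, so a further IFITM1 match that runs past its end stays in lower case.
IFIT1, chr10:89392463-89392622, + strand: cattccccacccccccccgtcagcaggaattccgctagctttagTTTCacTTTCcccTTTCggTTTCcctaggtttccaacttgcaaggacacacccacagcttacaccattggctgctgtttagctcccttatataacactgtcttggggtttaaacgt
IFIT3, chr10:89327837-89327996, + strand: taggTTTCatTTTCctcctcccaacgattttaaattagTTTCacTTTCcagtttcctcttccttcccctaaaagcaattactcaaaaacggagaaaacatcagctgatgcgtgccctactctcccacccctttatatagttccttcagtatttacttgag
SAMD9, chr7:93117980-93118139, - strand: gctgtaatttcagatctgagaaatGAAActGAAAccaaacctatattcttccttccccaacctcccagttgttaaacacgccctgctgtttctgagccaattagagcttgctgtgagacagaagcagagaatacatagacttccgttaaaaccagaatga
IFITM1, chr11:313880-314039, + strand: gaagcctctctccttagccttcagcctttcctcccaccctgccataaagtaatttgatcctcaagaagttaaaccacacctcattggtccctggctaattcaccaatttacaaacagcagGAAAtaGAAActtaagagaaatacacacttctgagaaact
IFITM3, chr11:320861-321020, - strand: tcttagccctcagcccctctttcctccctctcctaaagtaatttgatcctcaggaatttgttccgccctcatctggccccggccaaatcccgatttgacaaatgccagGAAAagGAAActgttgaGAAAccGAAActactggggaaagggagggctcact
HERC5, chr4:88456959-88457118, + strand: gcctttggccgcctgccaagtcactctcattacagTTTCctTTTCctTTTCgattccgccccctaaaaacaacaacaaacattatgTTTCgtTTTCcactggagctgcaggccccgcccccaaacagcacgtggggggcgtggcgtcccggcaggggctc
OAS1, chr12:112906802-112906961, + strand: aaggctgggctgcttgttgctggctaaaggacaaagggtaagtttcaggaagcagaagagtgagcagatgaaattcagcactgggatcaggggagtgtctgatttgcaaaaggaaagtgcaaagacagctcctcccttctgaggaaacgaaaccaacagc
A window from 250 bases before to 50 bases after the start was found for 35 of the 43 members, and 24 of these (68.6%) held GAAANNGAAA on either strand, overlapping matches included. Among all 27305 genes with such a window, 1195 (4.38%) held it. The match was present in 20 of the 30 members (66.7%) whose PATU-8902 libraries all lay above the PATU-8988T libraries, and in 4 of the other 5 (80.0%). IFIT2, IFITM2, OAS2, OASL, MX2, IRF7, USP18 and TRIM22 had no window in the table used. DDX58 was matched under its current symbol RIGI. A match is a description of letters and not of a bound site, and nothing about promoters was measured in these cells. A member without a match is not shown to lack a response element.

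The 2 lines held most of these genes at different levels whatever the treatment. For 34 of the 43 members, each of the 9 PATU-8902 libraries lay above each of the 9 PATU-8988T libraries. Among the members tested, 30 of 36 had this order, against 33.5% of all 11477 genes tested. IFITM2 and HERC5 had the opposite order, against 8.37% of all genes tested, and 7 members overlapped between the lines (IFITM3, STAT2, IRF7, USP18, TRIM21, TRIM22 and EPSTI1). The count of 30 is a description, because 14 of the 36 reached the level needed for testing only through PATU-8902. It was made on values as deposited, in which library medians ran from 6.12 to 12.1 FPKM in PATU-8988T and from 10.7 to 17.4 FPKM in PATU-8902. In PATU-8988T 17 members stayed below 1 FPKM in all 9 libraries, and 8 of them were near the floor: BST2, OASL, MX2, TRIM22, SAMD9L, RSAD2, IFI44L and XAF1. In PATU-8902 none was near the floor in all libraries, 3 stayed below 1 FPKM (TRIM22, EPSTI1 and IFI44L), and 17 reached 10 FPKM in every library.

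**Figure D1:**
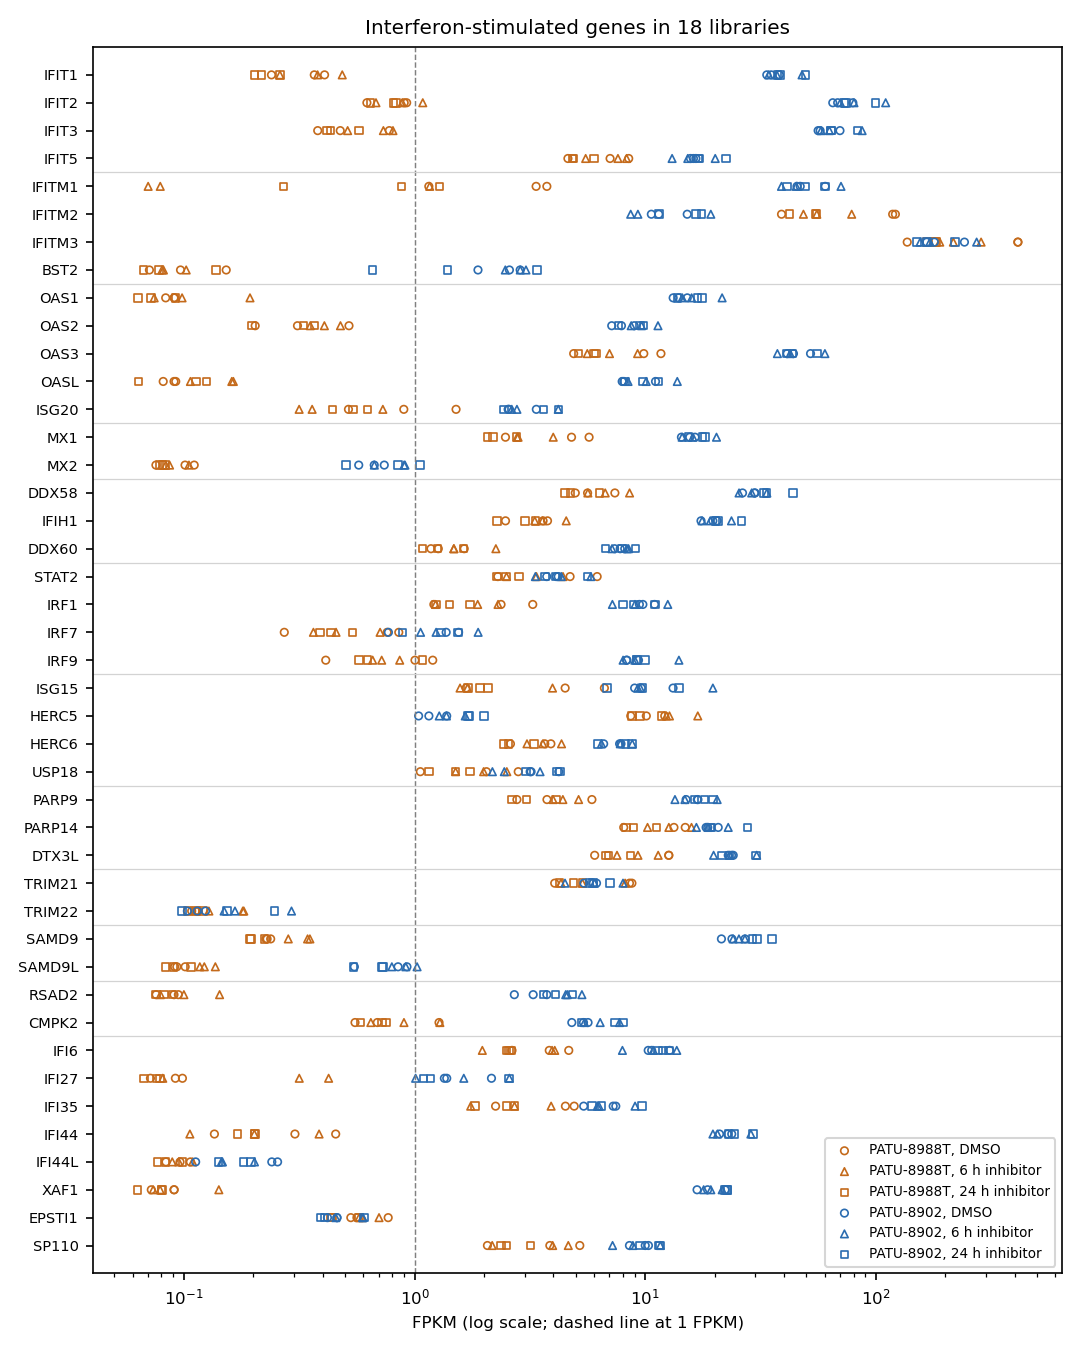
FPKM of the 43 members (log axis) in all 18 libraries, with each point 1 library, orange for PATU-8988T and blue for PATU-8902, and the marker shape giving the treatment. Blue points lie to the right of all orange points in 34 rows, and IFITM2 and HERC5 are the rows with the reverse order.

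The order of the members also differed between the lines. By median over 9 libraries, IFITM3 came first in both, at 189 FPKM in PATU-8988T and 171 FPKM in PATU-8902, ranges that overlapped. In PATU-8988T it was followed by IFITM2 at 55.3 FPKM, then by HERC5 at 11.7 FPKM and PARP14 at 11.2 FPKM, whose ranges overlapped. In PATU-8902 the next were IFIT2 at 74.4 FPKM and IFIT3 at 63.8 FPKM, again with overlapping ranges, and then IFITM1 at 47.0 FPKM. Bulk RNA cannot tell fewer cells that express a gene from less of its RNA in each cell.

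The test of the line difference compared the 3 DMSO libraries of each line with limma on log2(FPKM + 1), a scale that understates the change of low genes. Of the 36 members whose average across all 18 libraries reached 1 FPKM, 31 were higher in PATU-8902, 2 were lower and 3 did not pass an adjusted p of 0.05. Over all 11477 genes, 54.2% passed, 41.8% higher and 12.4% lower. The median log2 difference was 1.79 over the 36 members and 0.45 over all genes. The series describes spike-in normalisation, and the mean log2 deviation of the spike-ins ran from -0.065 to 0.047 over the libraries. Values as deposited keep this shift of 0.45 in the whole table, and its source was not tested. To describe the members without the shift, the fit was repeated after median-centring, in which each library is moved to a common median. Then 28 members were higher and 5 lower, against 34.4% and 37.8% of all genes, of which 72.2% passed, and the medians were 1.29 for members and -0.05 for all genes. Centring took ISG20, IFI35 and USP18 out of the higher group and put IFITM3, STAT2 and TRIM21 into the lower one.

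These counts are a description, because 14 of the 36 reached the level needed for testing only through PATU-8902. They were IFIT1, IFIT2, IFIT3, BST2, OAS1, OAS2, OASL, ISG20, IRF9, SAMD9, RSAD2, CMPK2, IFI44 and XAF1. The p-values given below for the line difference of these 14 are likewise a description. The other 22 averaged 1 FPKM or more in each line. Of these, 17 were higher in PATU-8902, 2 lower and 3 not past the threshold, with a median log2 difference of 1.21. Among the 9909 genes with such levels in both lines, 39.4% were higher and 9.21% lower, with a median of 0.42. After centring the 22 gave 15 higher and 5 lower, against 32.6% and 38.2% of these genes. With no filter on low values, all 43 could be tested, and 34 were higher and 2 lower, against 20.9% and 8.15% of 26249 genes. No library held more than 11423 of these genes at 1 FPKM or more. The shares of all genes without a filter therefore include many genes too low to pass, and are no like background. The fit without a filter added MX2, SAMD9L, IFI27 and IFI44L to the higher members and lost IFI35.

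**Figure D2:**
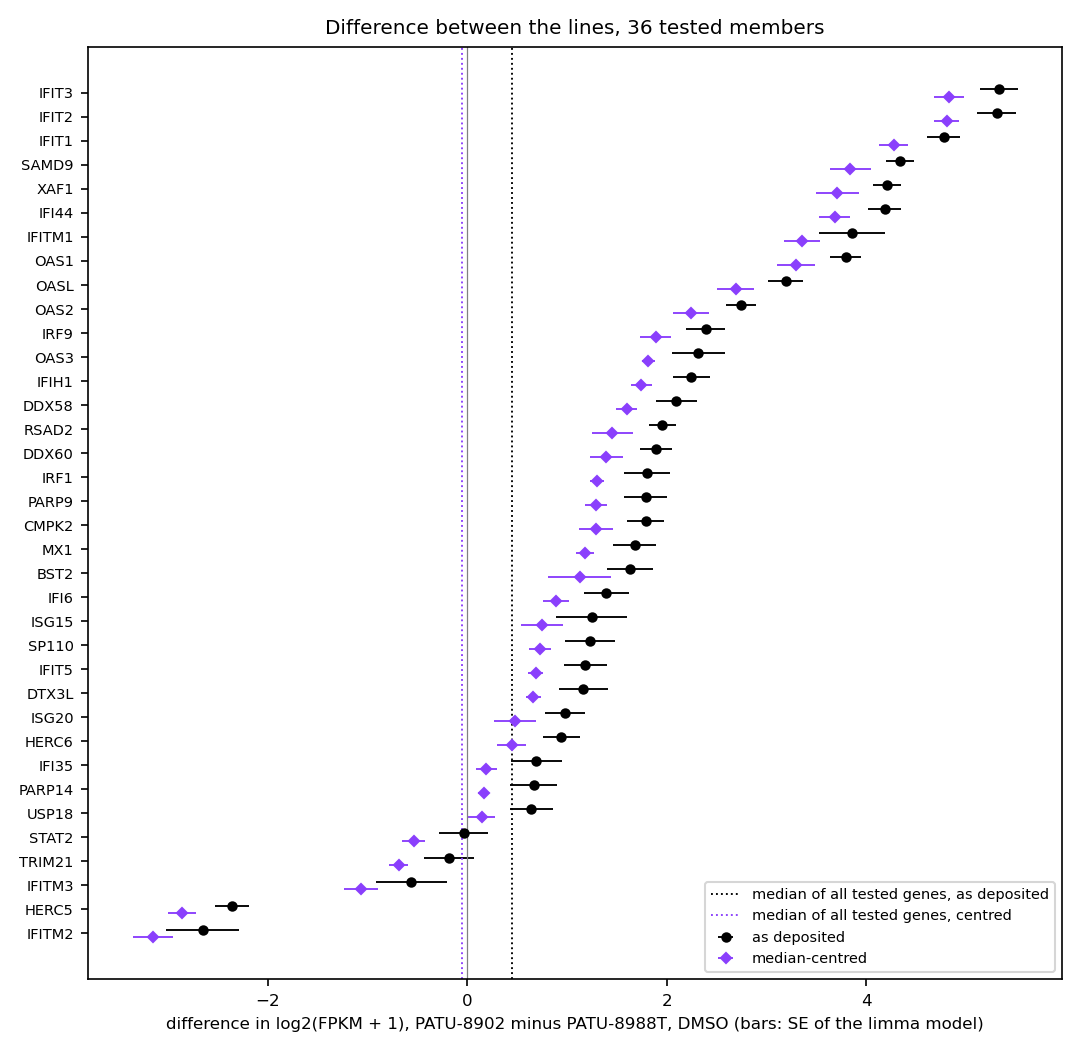
Difference in log2(FPKM + 1) between the DMSO libraries of PATU-8902 and PATU-8988T for the 36 tested members, as deposited (black circles) and median-centred (purple diamonds), with bars of 1 standard error and dotted lines at the median of all tested genes. IFIT3 and IFIT2 lie highest at 5.33 and 5.31 as deposited, and HERC5 and IFITM2 lie lowest at -2.36 and -2.65.

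The IFIT proteins bind viral RNA and hold back its translation, and 3 of the 4 genes had the widest gaps of the list on the log2(FPKM + 1) scale. By the ratio of medians, which near the floor is set by the floor, XAF1 and OAS1 had wider ones than all 3. SAMD9, IFI44 and OASL then had wider ones than IFIT2. IFIT1 measured 0.240, 0.368 and 0.408 FPKM in the DMSO libraries of PATU-8988T and 38.1, 35.2 and 33.6 FPKM in those of PATU-8902. IFIT2 measured 0.622, 0.925 and 0.902 FPKM against 79.4, 68.3 and 65.0 FPKM. IFIT3 measured 0.381, 0.476 and 0.778 FPKM against 69.8, 57.3 and 56.2 FPKM. No library of 1 line came near the other, and the log2 differences were 4.78 ± 0.16 (SE) for IFIT1, 5.31 ± 0.19 for IFIT2 and 5.33 ± 0.19 for IFIT3, with adjusted p of 2.19e-14, 4.12e-14 and 3.00e-14. IFIT5, next to IFIT1 on chromosome 10, was well above the floor in both lines, at 4.62, 8.48 and 7.04 FPKM against 16.2, 15.7 and 16.6 FPKM. Its difference was smaller, 1.19 ± 0.22 (adjusted p = 0.000139). The groups of IFIT5 did not overlap either.

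The oligoadenylate synthetases make the messenger that activates RNase L when they meet double-stranded RNA. OAS1, OAS3 and OAS2 lie in a row on chromosome 12 and differed widely in level within PATU-8988T. OAS1 was at 0.0834, 0.0907 and 0.0912 FPKM there in DMSO, values at the floor, and at 15.2, 13.2 and 14.0 FPKM in PATU-8902. OAS2 was at 0.204, 0.520 and 0.311 FPKM against 7.16, 8.96 and 7.89 FPKM. OAS3 was at 4.90, 11.7 and 9.86 FPKM against 52.1, 43.9 and 41.2 FPKM. So only OAS3 of the 3 had more than 1 FPKM in PATU-8988T, while all 3 were clearly present in PATU-8902. The log2 differences were 3.8 ± 0.15, 2.74 ± 0.15 and 2.32 ± 0.27 for OAS1, OAS2 and OAS3, with adjusted p of 1.87e-13, 1.62e-11 and 5.11e-07. OASL, a relative without synthetase activity, was near the floor in PATU-8988T and had a median of 9.78 FPKM over the PATU-8902 libraries (difference 3.19 ± 0.17, adjusted p = 1.18e-11). ISG20, an exonuclease, was low in both, with medians of 0.541 and 2.78 FPKM, and its difference of 0.98 ± 0.20 (adjusted p = 0.000482) missed the threshold after centring (0.48 ± 0.21, adjusted p = 0.0521).

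SAMD9, XAF1 and IFI44 showed the same all-or-little contrast. SAMD9, an antiviral factor, measured 0.227, 0.238 and 0.230 FPKM in PATU-8988T DMSO and 21.4, 27.1 and 23.8 FPKM in PATU-8902 DMSO. XAF1, an antagonist of the apoptosis inhibitor XIAP, measured 0.0723, 0.0906 and 0.0909 FPKM, values at or below the floor, against 16.8, 22.2 and 18.6 FPKM. IFI44, a cytosolic interferon-induced protein, measured 0.136, 0.303 and 0.455 FPKM against 22.8, 23.7 and 21.0 FPKM. Each gene separated the lines completely, with differences of 4.34 ± 0.14 for SAMD9, 4.21 ± 0.14 for XAF1 and 4.18 ± 0.17 for IFI44 (adjusted p of 1.00e-14, 1.17e-14 and 1.84e-13). The chromosomal neighbours of SAMD9 and IFI44 did not reach such levels in PATU-8902. SAMD9L had a median of 0.798 FPKM there beside 27.1 FPKM for SAMD9. IFI44L had a median of 0.181 FPKM beside 22.9 FPKM for IFI44.

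RSAD2 (viperin), which turns CTP into a chain terminator of viral RNA synthesis, and CMPK2, a nucleotide kinase that is its neighbour on chromosome 2, were both higher in PATU-8902. RSAD2 was near the floor in PATU-8988T and had a median of 4.09 FPKM in PATU-8902 (difference 1.96 ± 0.13, adjusted p = 3.29e-10). CMPK2 had medians of 0.724 and 5.65 FPKM (difference 1.79 ± 0.19, adjusted p = 1.27e-07). Of the dynamin-like GTPases, which trap viral nucleocapsids, MX1 had medians of 2.78 and 16.1 FPKM (difference 1.68 ± 0.22, adjusted p = 2.60e-06). MX2 beside it on chromosome 21 stayed between 0.504 and 1.05 FPKM in PATU-8902 and near the floor in PATU-8988T. MX2 was too low to be tested with the filter and passed without it (0.60 ± 0.08, adjusted p = 4.04e-05).

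The cytosolic RNA sensors were present in both lines and about equally spaced between them. DDX58 encodes RIG-I, which recognises RNA ends without a cap, and measured 4.98, 7.39 and 5.63 FPKM in PATU-8988T DMSO against 29.9, 29.7 and 26.4 FPKM in PATU-8902 DMSO. IFIH1, the sensor of long double-stranded RNA, measured 2.48, 3.77 and 3.61 FPKM against 19.6, 20.5 and 17.5 FPKM. DDX60, a related helicase, measured 1.27, 1.64 and 1.18 FPKM against 8.15, 7.36 and 7.79 FPKM. The differences were 2.10 ± 0.20, 2.25 ± 0.19 and 1.90 ± 0.16 (adjusted p of 5.00e-08, 6.78e-09 and 8.96e-09), and none of the 3 genes overlapped between lines. After centring they were 1.60 ± 0.11, 1.75 ± 0.11 and 1.39 ± 0.16.

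The transcription factors did not move as a unit. IRF9, the DNA-binding part of the complex that holds STAT2, measured 0.412, 1.00 and 1.20 FPKM in PATU-8988T DMSO against 8.29, 9.35 and 8.33 FPKM in PATU-8902 DMSO (difference 2.39 ± 0.20, adjusted p = 5.16e-09). STAT2 measured 2.30, 4.72 and 6.19 FPKM against 4.12, 3.74 and 4.20 FPKM, so that the PATU-8902 values fell inside the PATU-8988T range. Its difference was -0.03 ± 0.25 (adjusted p = 0.921), and after centring it was -0.54 ± 0.11 (adjusted p = 0.000536). IRF1, which interferon gamma induces, had medians of 1.74 and 9.44 FPKM without overlap (difference 1.80 ± 0.23, adjusted p = 2.34e-06). IRF7, which drives interferon alpha genes, was low in both lines, from 0.273 to 0.855 FPKM and from 0.771 to 1.89 FPKM. IRF7 was tested only without the filter and did not pass (0.46 ± 0.18, adjusted p = 0.0726).

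ISG15 is a ubiquitin-like protein, HERC5 is the main ligase that attaches it in human cells, HERC6 is a relative of HERC5, and USP18 removes ISG15 and damps receptor signalling. ISG15 measured 1.67, 4.50 and 6.65 FPKM in PATU-8988T DMSO and 13.2, 9.0 and 9.61 FPKM in PATU-8902 DMSO (difference 1.25 ± 0.36, adjusted p = 0.0063). HERC5 went the other way, with 8.66, 12.2 and 10.1 FPKM in PATU-8988T and 1.15, 1.38 and 1.04 FPKM in PATU-8902. Its difference of -2.36 ± 0.17 (adjusted p = 6.70e-10) became -2.86 ± 0.14 after centring. HERC6, beside HERC5 on chromosome 4, was higher in PATU-8902, at 6.60, 7.85 and 7.74 FPKM against 2.61, 3.67 and 3.90 FPKM (difference 0.95 ± 0.18, adjusted p = 0.000229). The 2 adjacent genes thus differed in opposite directions between the lines, and the HERC5 promoter printed above holds 3 matches of the searched motif. USP18 had overlapping ranges, with medians of 1.74 and 3.20 FPKM. Its difference of 0.64 ± 0.21 (adjusted p = 0.0163) missed the threshold without DMSO replicate 1 of PATU-8902, without DMSO replicate 1 of PATU-8988T (adjusted p = 0.0993) and after centring (0.14 ± 0.13, adjusted p = 0.343).

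PARP9 and DTX3L encode partners of an ADP-ribosylation and ubiquitin ligase complex and are neighbours on chromosome 3. PARP9 had medians of 3.99 and 16.8 FPKM (difference 1.79 ± 0.22, adjusted p = 1.01e-06) and DTX3L of 8.64 and 23.2 FPKM (difference 1.16 ± 0.25, adjusted p = 0.000629). PARP14, a transferase of single ADP-ribose units, was closer, with 8.07, 14.9 and 13.3 FPKM in PATU-8988T DMSO against 20.7, 18.7 and 18.4 FPKM in PATU-8902 DMSO. Its difference was 0.67 ± 0.23 (adjusted p = 0.0217), and without PATU-8902 DMSO replicate 1 or PATU-8988T DMSO replicate 1 it did not pass. TRIM21, a cytosolic antibody receptor, overlapped fully between lines, with medians of 5.34 and 5.96 FPKM (difference -0.19 ± 0.25, adjusted p = 0.554, and -0.69 ± 0.10 after centring, adjusted p = 7.29e-06). TRIM22 did not exceed 0.182 FPKM in PATU-8988T or 0.293 FPKM in PATU-8902.

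Of the remaining genes, IFI6, a mitochondrial inhibitor of apoptosis, had medians of 2.65 and 11.3 FPKM (difference 1.39 ± 0.22, adjusted p = 3.29e-05). SP110, a nuclear body protein, had medians of 3.19 and 10.0 FPKM (difference 1.23 ± 0.25, adjusted p = 0.000384). IFI35 had medians of 2.71 and 6.45 FPKM without overlap. Its difference of 0.69 ± 0.26 (adjusted p = 0.0282) did not pass without PATU-8988T DMSO replicate 1, PATU-8902 DMSO replicate 1 or PATU-8902 DMSO replicate 3. IFI27 ran from 1.01 to 2.58 FPKM in PATU-8902, and in PATU-8988T 7 of its 9 values were below 0.1 FPKM. The other 2, at 0.317 and 0.424 FPKM, were 6 h libraries. EPSTI1 was low in both lines, with medians of 0.576 and 0.461 FPKM.

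The IFITM genes lie together on chromosome 11 and encode membrane proteins that stop viruses from fusing with the cell, and their 3 patterns differed. IFITM1 measured 1.15, 3.37 and 3.75 FPKM in PATU-8988T DMSO and 60.3, 45.5 and 47.0 FPKM in PATU-8902 DMSO. IFITM2 measured 39.0, 121 and 118 FPKM against 15.2, 11.4 and 10.6 FPKM. IFITM3 measured 137, 413 and 412 FPKM against 242, 166 and 179 FPKM. IFITM1 was thus high in PATU-8902, IFITM2 high in PATU-8988T and IFITM3 abundant in both, with overlap. The differences were 3.86 ± 0.33 for IFITM1 (adjusted p = 8.94e-09), -2.65 ± 0.37 for IFITM2 (adjusted p = 6.58e-06) and -0.56 ± 0.36 for IFITM3 (adjusted p = 0.192). After centring IFITM3 passed as lower in PATU-8902 (-1.06 ± 0.17, adjusted p = 3.86e-05), and as deposited it passed only without PATU-8988T DMSO replicate 1 (adjusted p = 0.00222). The 3 genes are close paralogs, and the sources used here do not say how reads matching more than 1 of them were shared out, so their levels carry that uncertainty.

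Ratios between genes of 1 library are free of a scaling that moves all its genes alike, but not of the floor. IFITM3 exceeded IFITM2 by 3.27 to 3.92 times in the 9 PATU-8988T libraries and by 10.0 to 18.4 times in the 9 PATU-8902 libraries. IFITM1 stood at 22.7% to 32.7% of IFITM3 in PATU-8902. In PATU-8988T it stood at 0.844%, 0.815% and 0.909% of IFITM3 in DMSO, 0.0371%, 0.0365% and 0.407% at 6 h, and 0.164%, 0.711% and 0.482% at 24 h. The 2 smallest shares have IFITM1 at or below the floor and are no exact shares. Both ratios separated the lines without overlap, and within PATU-8988T all 6 inhibitor libraries had a lower IFITM1 share than the 3 DMSO libraries. These ratios were chosen after the values were seen. BST2 (tetherin), which holds budding virions at the membrane, was near the floor in PATU-8988T and between 0.658 and 3.39 FPKM in PATU-8902 (difference 1.63 ± 0.23, adjusted p = 8.13e-06).

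**Figure D3:**
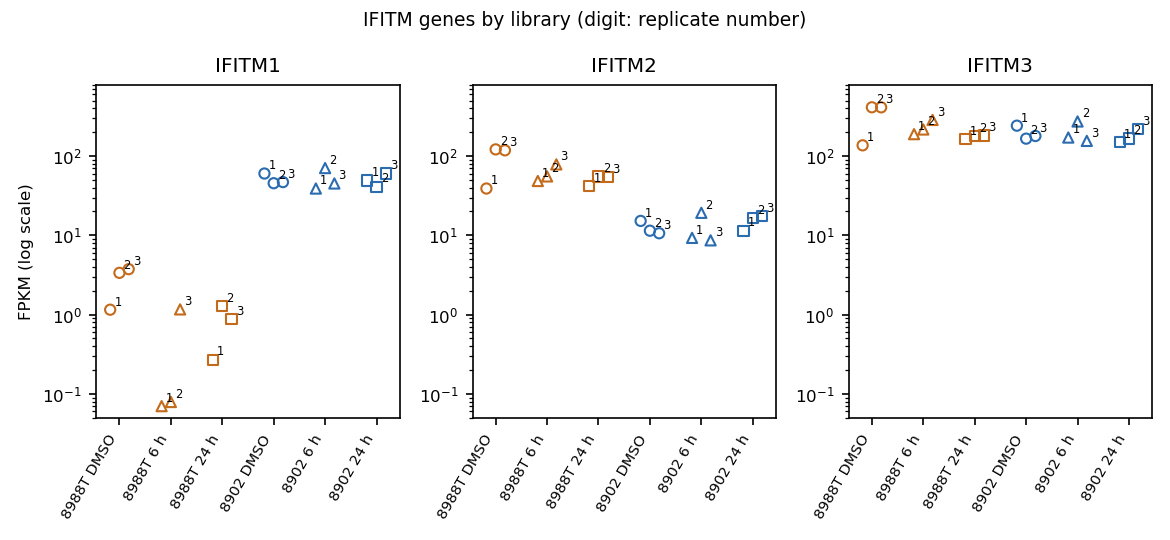
FPKM of IFITM1, IFITM2 and IFITM3 (log axis) in each of the 18 libraries, by group, with the replicate number printed beside each point. The 9 PATU-8902 points lie above the PATU-8988T points for IFITM1, between 39.0 and 70.6 FPKM, below them for IFITM2, between 8.65 and 19.2 FPKM, and among them for IFITM3.

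Other genes of the pathway, from a list of 81 found in the table, placed the members in their setting. Of 56 tested, 30 were higher and 5 lower in PATU-8902, with a median log2 difference of 0.71 beside 0.45 for all genes, and after centring 29 were higher and 18 lower. Of all genes 41.8% were higher and 12.4% lower as deposited, and 34.4% and 37.8% after centring. Among 10 interferon ligand genes none reached the level for testing. IFNB1 and IFNG did not exceed 0.336 and 0.118 FPKM in any library, and IFNE, an epithelial type I interferon, reached 1.13 FPKM in PATU-8902 DMSO and 0.101 FPKM in PATU-8988T DMSO. Of 9 receptors and kinases 3 were higher and none lower, a share of higher genes below that of all genes, and after centring 3 were higher and 4 lower. IFNAR1, a chain of the type I receptor, was at 8.70 ± 1.61 FPKM (SD over 3 libraries) in DMSO-treated PATU-8988T and at 21.8 ± 1.04 FPKM in DMSO-treated PATU-8902. IFNGR1, a chain of the interferon gamma receptor, measured 11.3 ± 3.06 and 52.4 ± 7.61 FPKM, and JAK2 measured 1.78 ± 0.48 and 4.58 ± 0.51 FPKM. JAK1 (0.60 ± 0.26, adjusted p = 0.0569) and TYK2 (-0.49 ± 0.25, adjusted p = 0.106) did not pass as deposited, and TYK2 passed as lower after centring (-0.99, adjusted p = 7.70e-08).

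The DNA-sensing branch, which leads to interferon production, was split. TMEM173 (STING), the adaptor, measured 0.176 ± 0.087 FPKM in the DMSO libraries of PATU-8988T and 9.07 ± 1.43 FPKM in those of PATU-8902, and MB21D1 (cGAS), the sensor that feeds it, 11.3 ± 4.47 and 32.2 ± 2.92 FPKM. IFI16, another DNA sensor, was lower in PATU-8902, at 0.853 ± 0.275 FPKM against 8.16 ± 2.45 FPKM (log2 difference -2.28 ± 0.20, adjusted p = 9.82e-09). The brakes SOCS3 and PTPN6 were higher in PATU-8902, by 2.53 ± 0.24 and 2.47 ± 0.17 (adjusted p of 4.61e-08 and 4.46e-10), together with PIAS1.

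Among 26 tested genes of a further list of interferon-induced genes, 14 were higher and 3 lower, and after centring 12 were higher and 8 lower, where all genes gave 41.8% and 12.4% as deposited and 34.4% and 37.8% centred. GBP3, a guanylate-binding protein, measured 0.226 ± 0.090 FPKM in PATU-8988T DMSO and 32.1 ± 1.11 FPKM in PATU-8902 DMSO. PLSCR1 and NMI, both interferon-induced, were higher by 2.32 ± 0.26 and 2.29 ± 0.23 (adjusted p of 3.45e-07 and 1.11e-07). UBE2L6, the conjugating enzyme that hands ISG15 to HERC5, was lower, at 5.04 ± 0.67 FPKM in PATU-8902 against 17.1 ± 7.35 FPKM (log2 difference -1.49 ± 0.30, adjusted p = 0.00031). SHISA5, a regulator of apoptosis, and TRIM5, which restricts retroviral capsids, were lower by the same test. Of 7 other STAT and IRF factors tested, 5 were higher as deposited and only 1, the repressor IRF2, was lower. Enzyme and ligase of ISG15 were therefore both lower in the line in which ISG15 itself was higher.

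The lines also differed in their epithelial and mesenchymal markers. All 7 epithelial markers tested (KRT7, KRT8, KRT18, KRT19, EPCAM, CDH1 and CLDN4) were higher in PATU-8902, and all 4 mesenchymal markers (VIM, ZEB1, FN1 and CDH2) were lower. KRT19 measured 0.109 ± 0.036 FPKM in PATU-8988T DMSO against 458 ± 91.8 FPKM, CDH1 0.129 ± 0.052 against 94.2 ± 9.14 FPKM, and VIM 212 ± 72.3 against 5.66 ± 0.46 FPKM. KRT8 was at least 168 FPKM, KRT18 at least 201 FPKM and EPCAM at least 9.67 FPKM in every library of both lines. Of 8 leukocyte markers only CD68 exceeded 0.402 FPKM, PTPRC did not exceed 0.234 FPKM, and no endothelial marker exceeded 0.531 FPKM or fibroblast marker 0.824 FPKM. Whether these differences have any part in the line differences of the members cannot be told from 2 lines and was not tested.

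The study asked what DCLK1-IN-1 changes in these lines, and for the interferon-stimulated genes as deposited no change passed. None of the 36 tested members passed limma's adjusted p of 0.05 in either line at 6 h or 24 h. Of all genes tested, 0% passed in PATU-8988T at 6 h and at 24 h, 0.00871% in PATU-8902 at 6 h and 0.113% in PATU-8902 at 24 h, so a count of 0 among members is near the background. At an unadjusted p below 0.05 there were 2 and 3 members in PATU-8988T at 6 h and 24 h (2.5% and 5.99% of all genes), and 1 and 3 in PATU-8902 (0.688% and 1.46% of all genes). No member passed between 24 h and 6 h of inhibitor in either line (0% of all genes in both). At an unadjusted p below 0.05 there were 1 member in PATU-8988T (5.79% of all genes) and 2 in PATU-8902 (1.72%). None passed in the difference of the inhibitor effect between the lines at 6 h (0% of all genes) or 24 h (0.00871%). There 2 members had an unadjusted p below 0.05 each time (0.863% and 2.45% of all genes). Standard errors of the log2 changes within a line ran from 0.13 for RSAD2 to 0.37 for IFITM2. For the differences of the effect between the lines they ran from 0.19 for RSAD2 to 0.52 for IFITM2. A change that misses the threshold is not shown to be absent. Apart from IFITM1 in PATU-8988T at 6 h, no member passed after centring either. The share of all genes that then passed was 0% in PATU-8988T at 24 h, 0.113% in PATU-8902 at 6 h and 0.444% in PATU-8902 at 24 h. It was 0% and 0.244% for 24 h against 6 h in PATU-8988T and PATU-8902, and 0% and 0.227% for the line difference of the 6 h and the 24 h effect. As deposited, none of the 56 tested genes of the pathway list passed in the 4 inhibitor comparisons.

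The exception after centring was IFITM1 in PATU-8988T at 6 h. Against 1.15, 3.37 and 3.75 FPKM in DMSO, IFITM1 measured 0.0701, 0.0790 and 1.16 FPKM at 6 h and 0.271, 1.28 and 0.877 FPKM at 24 h. The first 2 values at 6 h were at or below the floor, and the third matched the lowest DMSO library, so the groups just overlapped. As deposited the 6 h change was -1.39 ± 0.33 (adjusted p = 1.00), and after centring it was -1.37 ± 0.18 (adjusted p = 0.00366), where 0.0784% of all genes passed, 0.0523% as higher and 0.0261% as lower. When any 1 of the 6 libraries of these 2 groups was dropped, the centred value still passed, with adjusted p from 0.000269 to 0.0324. At 24 h the change was -1.01 ± 0.33 (adjusted p = 0.334), and -0.66 ± 0.18 after centring (adjusted p = 0.295). In PATU-8902 IFITM1 stayed between 39.0 and 70.6 FPKM in all 9 libraries. The difference of its 6 h change between the lines was 1.37 ± 0.47 (adjusted p = 1.00) and after centring 1.4 ± 0.26 (adjusted p = 0.211), so a difference between the lines was not shown.

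**Figure D4:**
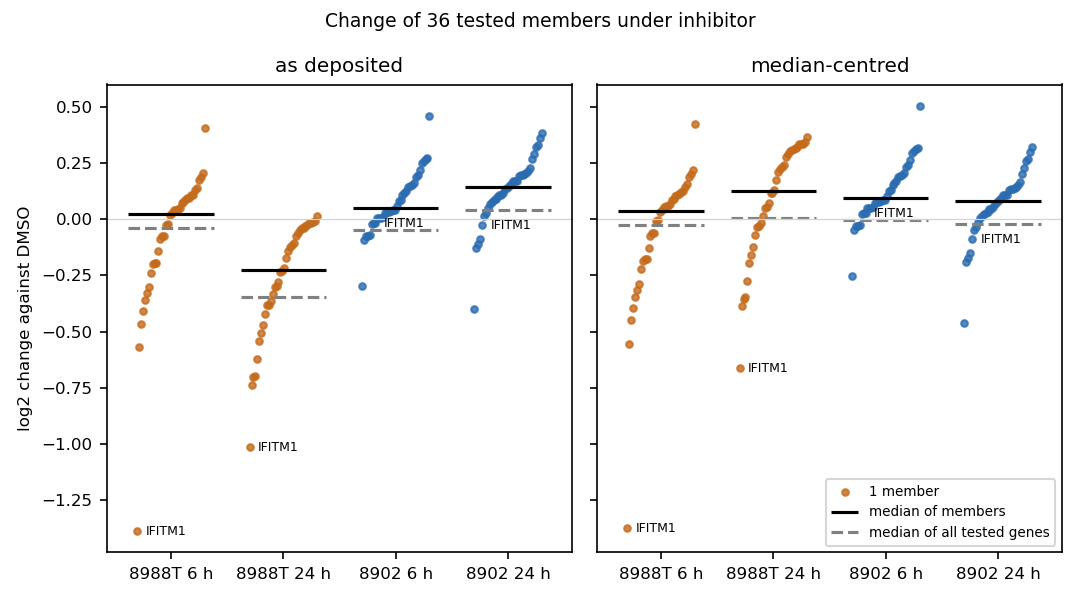
Log2 change against DMSO of the 36 tested members in the 4 inhibitor comparisons, as deposited (left) and median-centred (right), with each point 1 member, a black bar at their median and a grey dashed bar at the median of all tested genes. IFITM1 in PATU-8988T is the lowest point of both its panels, at -1.39 for 6 h as deposited and -1.37 centred.

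The next smallest p in PATU-8988T at 6 h belonged to HERC5 and ISG20. HERC5 measured 12.4, 12.7 and 16.9 FPKM at 6 h, all above its 3 DMSO values, and its log2 change was 0.41 ± 0.17 (adjusted p = 1.00). ISG20 measured 0.316, 0.360 and 0.729 FPKM against 0.517, 1.51 and 0.899 FPKM, with overlap, and changed by -0.41 ± 0.20 (adjusted p = 1.00). At 24 h MX1 measured 2.08, 2.19 and 2.77 FPKM against 2.48, 5.71 and 4.79 FPKM in DMSO (-0.62 ± 0.22, adjusted p = 0.334), and STAT2 measured 2.27, 2.49 and 2.84 FPKM against 2.30, 4.72 and 6.19 FPKM (-0.54 ± 0.25, adjusted p = 0.334). In both genes the lowest DMSO library lay among the 24 h libraries. As deposited 35 of 36 members lay below 0 at 24 h, with a median of -0.22, while the median of all genes was -0.35. After centring 24 of the 36 lay above 0, with medians of 0.12 and 0.00. At 6 h the medians were 0.02 for members and -0.04 for all genes.

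In PATU-8902 the smallest p belonged to RSAD2 at 6 h and SAMD9 at 24 h. RSAD2 measured 3.27, 3.74 and 2.71 FPKM in DMSO and 4.52, 5.32 and 4.60 FPKM at 6 h, without overlap, a change of 0.46 ± 0.13 (adjusted p = 1.00). At 24 h it measured 4.09, 3.62 and 4.85 FPKM, overlapping DMSO, a change of 0.29 ± 0.13 (adjusted p = 1.00). SAMD9 measured 29.2, 30.5 and 35.4 FPKM at 24 h, above its 3 DMSO values, a change of 0.38 ± 0.14 (adjusted p = 1.00). HERC5 measured 1.73, 1.71 and 2.0 FPKM at 24 h, also above DMSO (0.36 ± 0.17, adjusted p = 1.00). OAS2 and OAS1 followed at 6 h, with 0.27 ± 0.15 and 0.26 ± 0.15 (adjusted p = 1.00 for both). The member medians were 0.05 at 6 h and 0.15 at 24 h, beside -0.05 and 0.04 for all genes. These are small changes next to the line differences of the same genes, and none passed.

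Between 24 h and 6 h of inhibitor, the smallest p in PATU-8988T belonged to HERC5 (-0.45 ± 0.17), DDX58 (-0.36 ± 0.20) and PARP9 (-0.37 ± 0.22), all with an adjusted p of 0.442. In PATU-8902 it was BST2 (-0.55 ± 0.23), SAMD9 (0.30 ± 0.14) and USP18 (0.38 ± 0.21), with an adjusted p of 1.00. For the difference of the 24 h effect between lines the first were MX1 (0.76 ± 0.31), IFITM1 (0.99 ± 0.47) and SAMD9 (0.42 ± 0.20), all with an adjusted p of 0.547, and for that of the 6 h effect RSAD2 (0.43 ± 0.19) and ISG20 (0.53 ± 0.29) came after IFITM1, with an adjusted p of 1.00. Both lines contribute their DMSO libraries to these last contrasts, which are therefore not independent of the comparisons above.

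How far members moved within a line, over all its treatments, followed the overall level of the library. The median FPKM of the 11477 tested genes ran from 6.12 to 12.1 in PATU-8988T and from 10.7 to 17.4 in PATU-8902, and the lowest of all was PATU-8988T DMSO replicate 1. In that library the median member lay 0.24 log2 units below its mean over the line, and in DMSO replicate 2 of the same line it lay 0.36 above. The 5 libraries with the highest member levels relative to their line were also the 5 with the highest library medians relative to their line. Among genes averaging 5 FPKM or more in a line, the highest library exceeded the lowest by a median of 1.66 times for 30 members in PATU-8902 and 1.73 times for all 8491 genes. The range over members went from 1.35 times for DDX60 to 2.88 times for ISG15. In PATU-8988T the medians were 2.10 times for 9 members and 2.21 times for 7406 genes, from 1.83 times for IFIT5 to 3.12 times for IFITM2.

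**Figure D5:**
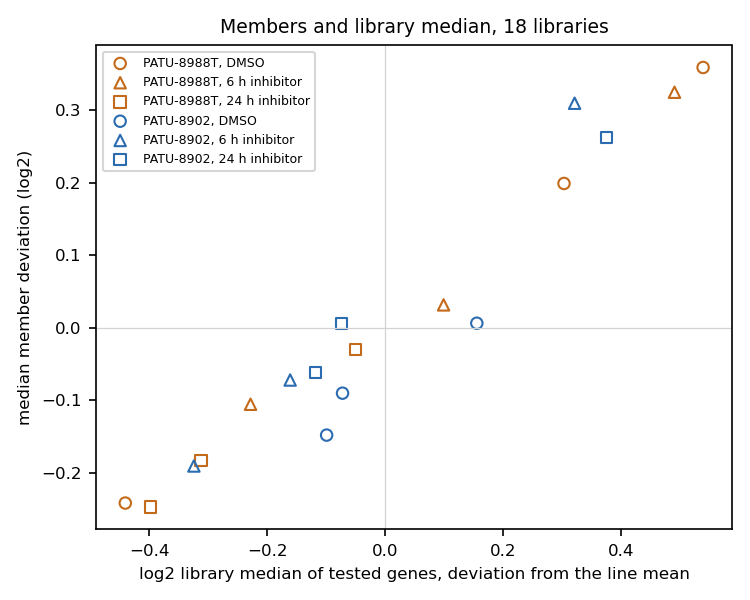
Median deviation of the members from their mean over the line (vertical axis, log2) against the deviation of the library median of all tested genes from its mean over the line (horizontal axis, log2), with 1 point per library. The highest point, PATU-8988T DMSO replicate 2, lies at 0.54 and 0.36, and DMSO replicate 1 of the same line lies at -0.44 and -0.24.

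That 1 library decided the counts of the PATU-8988T inhibitor comparisons. Without PATU-8988T DMSO replicate 1, 16 of 36 members passed as lower at 24 h and none as higher, when 56.7% of all genes also passed as lower and 0.0523% as higher. They included MX1, STAT2, ISG15, IRF1 and the 3 IFITM genes. After centring without it, 20 members passed at 24 h, 15 higher and 5 lower, against 19.5% and 21.3% of all genes. The 5 lower ones were IFITM1, IFITM2, IFITM3, MX1 and OAS3. The higher ones included OAS1, which was near the floor in all libraries of both groups. They also included DDX58, HERC5, IFIH1 and DDX60, which stayed above 1 FPKM in PATU-8988T. Centring adds 1 shift to all genes of a library, higher and lower calls alike. Calls of this centred fit alone are therefore not read as a rise or a fall. At 6 h the centred fit without it called 12 members, 5 higher and 7 lower, against 18.8% and 23.7% of all genes. For the line difference of the 6 h effect the centred fit without it called 6 members (IFITM1, IFITM2, IFITM3, ISG15, MX1 and OAS3), against 20.1% of all genes, and for that of the 24 h effect 1 (IFITM2), against 5.54%. IFITM1 was lower in each of these fits of PATU-8988T, and IFITM2, IFITM3, OAS3 and MX1 passed as lower at 24 h on both scales. Whether replicate 1 or the pair of replicates 2 and 3 stands for the line in DMSO cannot be told apart from 3 libraries.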

How the data were processed

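Polyadenylated RNA of 18 libraries was read in single-end runs of 75 bases, per the labels' protocols, with ERCC spike-in RNA added to RNA normalised by cell count. The authors deposited 1 table of FPKM values with a row per gene symbol. HISAT, Cufflinks and Cuffnorm are named as tools, and hg19 as build, per the submitters' processing notes. The sources used here do not give their versions. Rows of the 92 spike-ins were left out. The table has no coordinates, so hg19 positions are not printed.

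Values as deposited were taken as log2(FPKM + 1), and the 11477 genes averaging 1 FPKM or more across the libraries were tested with limma 3.58.1 in R 4.3.3 (mean-variance trend, 6 group means, 12 residual degrees of freedom). P-values are 2-sided with Benjamini-Hochberg adjustment over these genes in each of 9 contrasts. Errors are standard errors of the model or standard deviations of FPKM. The steps were tested on simulated data. The series describes biological triplicates, and p-values measure the spread among these libraries.

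Alternatives were median-centring, spike-in rescaling, a block for the replicate number, fitting the compared groups alone, dropping each library in turn, a filter at 5 FPKM or none, and a pseudocount of 0.1. Chosen after seeing the data were centring with each library dropped, centring without a filter, and dropping PATU-8988T DMSO replicates 2 and 3 together. The members, gene lists and motif were chosen with earlier results of these data known. All members may be named, and some genes of the pathway list are not reported here. In each contrast those past the threshold are named, or else the 3 with the smallest p, and other genes come from lists of the pathway and of cell markers. Promoters and gene order are from RefSeq tables of GRCh38.p14, in which the symbols of all 43 members were found.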

Additional observations from a re-analysis of the deposited data

How the results depend on the processing

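The count of members that differed between the lines in DMSO, 33 as deposited, ran from 25 with a filter of 5 FPKM (of 27 tested) and 30 on the compared groups alone to 36 of 43 with no filter. Leaving out each library gave 30 to 33, and 31 to 34 after centring. Of all genes 54.2% passed in this comparison as deposited and 72.2% after centring. With no filter 20.9% passed as higher and 8.15% as lower, shares that include many genes too low to pass. Shares of all genes in its other settings are not reported here, so those counts have no background beside them. Counts of members under the inhibitor were 0 as deposited. In PATU-8988T at 6 h the count became 1, IFITM1, on the compared groups alone, after median-centring, after centring with the replicate block and after centring without a filter. Leaving out each library gave 0 to 16 in PATU-8988T at 24 h and 0 in the other inhibitor contrasts. With centring it gave 1 to 12 in PATU-8988T at 6 h, 0 to 20 at 24 h, 0 to 6 for the line difference of the 6 h effect and 0 to 1 for that of the 24 h effect, the highest value each time without PATU-8988T DMSO replicate 1. Without that library 20.1% and 5.54% of all genes passed in these line differences, and the shares for PATU-8988T at 6 h and 24 h are given above. Where leaving out a library leaves 2 libraries in a group, they are assumed to vary like the others. Replicate numbers did not pair the libraries: deviations from the group means correlated at -0.22 to 0.14 over 18 same-numbered pairs, with 3 above 0.1. With the replicate block the line comparison gave 33 members and the inhibitor comparisons 0 as deposited. At 24 h in PATU-8988T members changed sign past the threshold. As deposited only 1 of the 36 lay above 0, while the members given above as higher after centring without PATU-8988T DMSO replicate 1 passed above 0. Of these OAS1, near the floor, was -0.02 as deposited and 0.58 in that fit, by the shift that centring adds to every gene. DDX58, which stayed above 1 FPKM, passed there at 0.33 (limma adjusted p = 0.00891). Signs below the threshold turned too: at 24 h in PATU-8988T 35 of 36 members lay below 0 as deposited and 24 above 0 after centring. The log2 scale with a pseudocount of 1 compresses members near the floor: the IFITM1 change in PATU-8988T at 6 h was -2.92 with a pseudocount of 0.1 (adjusted p = 0.363). Without depth, counting error near the floor is unknown.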
